A study of Mus musculus with 6 samples.

Results

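Interferon regulatory factors (IRFs), the cytosolic nucleic acid sensing adaptors that act above them and the type I interferon receptor were examined in RAW264.7 cells, a macrophage-like line from mouse. The set was chosen by gene name, with earlier results of these data known. It holds 10 of the 49315 genes in the count table, namely Irf1, Irf2, Irf3, Irf5, Irf7 and Irf9, Cgas, Tmem173 (also called Sting1), Mavs and Ifnar1. RNA was sequenced from 3 libraries of cells exposed for 24 h to SKI-II at 4 μg/mL and from 3 libraries of cells given the same amount of its DMSO vehicle. SKI-II is a compound best known for inhibiting sphingosine kinases. Both groups were labelled wild type, came from the same cell line and carried no other agent or infection in the labels. The methods take treatment and RNA extraction from the quantitative PCR protocol, which describes its replicates as biological, and the labels only number the libraries. The p-values measure the spread between these samples.

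In macrophages, the enzyme cGAS detects DNA in the cytosol and makes the messenger cGAMP, which binds STING on the endoplasmic reticulum, while RIG-I and MDA5 detect RNA and signal through MAVS on mitochondria. Both routes activate the kinase TBK1, which phosphorylates IRF3 and IRF7 and so switches on type I interferon genes. Secreted interferon binds the receptor IFNAR1/IFNAR2 and activates the complex ISGF3, of which STAT2 and IRF9 are subunits, and ISGF3 raises the transcription of Irf7 and of many antiviral genes.

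The libraries held 12495957 to 20050677 counts, and SKI-II replicate 3 was the deepest. Each member had between 186 and 2558 reads in every library, for which counting error alone is 7.33% to 1.98%. All 10 members passed the filter on low counts, as did 12274 genes in all. Normalized counts, used throughout for a single gene, are reads scaled to a library of the average effective size of 16042438. The label of the cells was checked against marker lists. All 10 macrophage markers were tested, and their summed normalized counts were 145557 to 210884 in DMSO and 92394 to 129399 in SKI-II, with 4 markers lower (Lyz2, Itgam, Adgre1 and Mpeg1), 2 higher (Cd14 and Fcgr1) and 4 not called. The summed markers of fibroblasts, endothelial cells, T cells and B cells reached no more than 21.2 normalized counts in any library, and those of epithelial cells were at 0 in all. The part of the macrophage marker shift in the results below was not tested. In bulk RNA, fewer cells of a kind and less RNA per cell cannot be told apart.

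SKI-II treatment was accompanied by lower Irf7, Cgas, Irf1 and Irf9, and none of the other members passed the test in either direction. A gene was called at an adjusted p below 0.05, where p came from the quasi-likelihood fit of edgeR and was adjusted over all tested genes by the Benjamini-Hochberg procedure. By this rule 4 of 10 members (40.0%) were lower, where 19.7% of all tested genes were lower, and 0 members were higher, where 18.4% of all tested genes were higher. Without DMSO replicate 1, 2 members (Irf7 and Cgas) were lower and 1 (Irf3) was higher, beside 18.8% and 17.5% of all genes then tested. The calls lost were those of Irf1 and Irf9, which kept log2 fold changes of -0.52 (edgeR adjusted p = 0.0684) and -0.46 (edgeR adjusted p = 0.0504), and leaving out any 1 SKI-II library gave 3 lower. With the replicate number as a block 4 were lower and 1 (Irf3) higher, beside 2819 and 2765 of all tested genes. DESeq2 and limma-voom called 4 lower and 0 higher. Of all genes, DESeq2 called 2442 lower and 2367 higher, and limma-voom 2413 and 2249. At an unadjusted p below 0.05 edgeR also gave 4 lower and 0 higher, with no share of all genes taken at that threshold. With a log2 fold change below -1 required as well, 1 member (Irf7) remained lower against 7.44% of all tested genes. No member lay above 1, where edgeR called 8.28% of tested genes. The 3 libraries of each group did not overlap for 6 members, 4 of them lower and 2 of them higher in SKI-II, and did not overlap for 50.3% of all tested genes. The median log2 fold change of the members was -0.17, beside 0.00 for all tested genes.

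**Figure D1:**
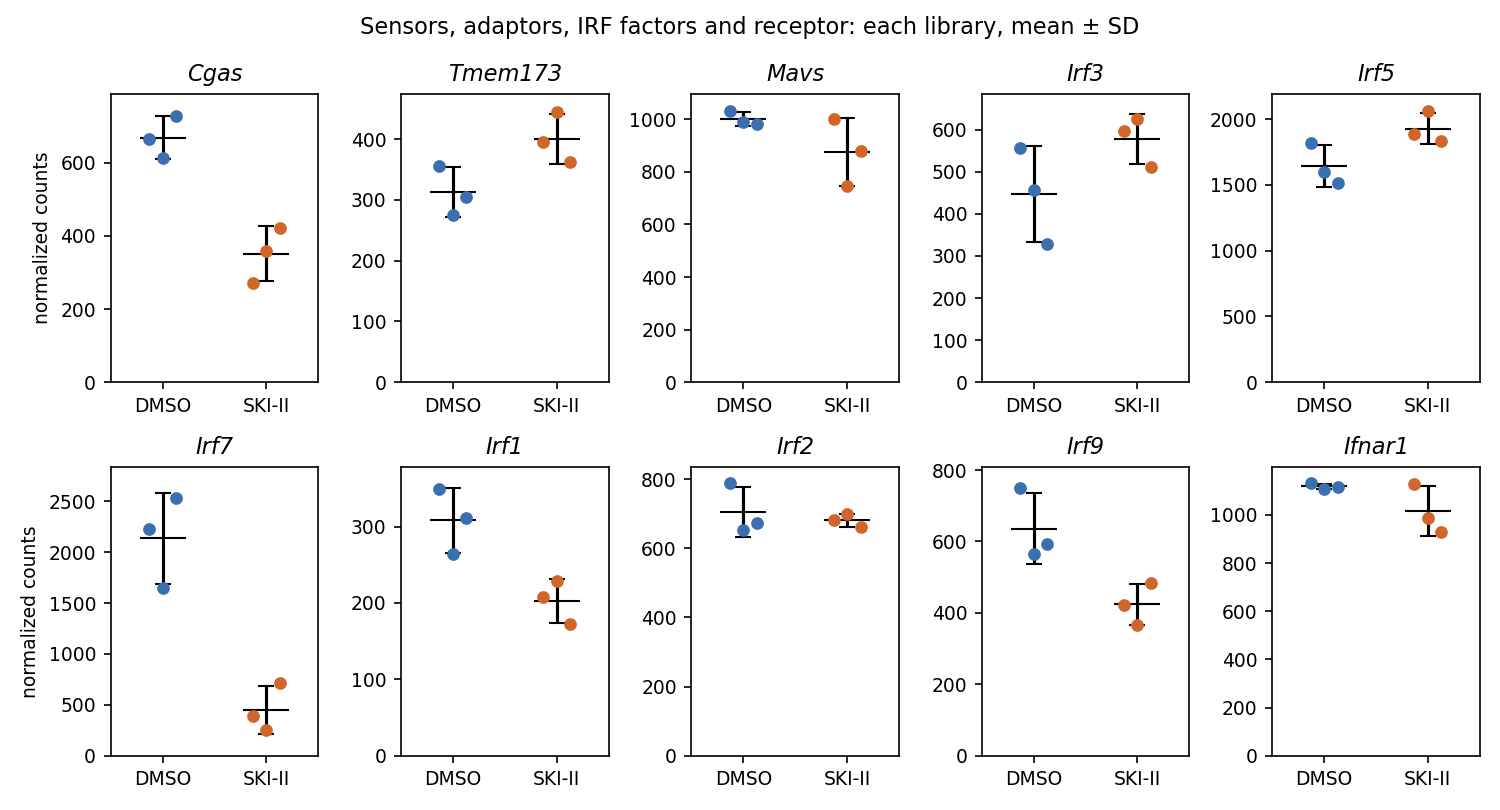
Normalized counts (vertical axis, from 0, a different scale in each panel) of the 10 genes in the 3 DMSO libraries (blue) and the 3 SKI-II libraries (orange), with the mean and SD as black bars. The groups stand apart for Cgas, Irf7, Irf1 and Irf9, which were lower in SKI-II, and for Tmem173 and Irf5, which lay higher in SKI-II but did not pass the test.

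**Figure D2:**
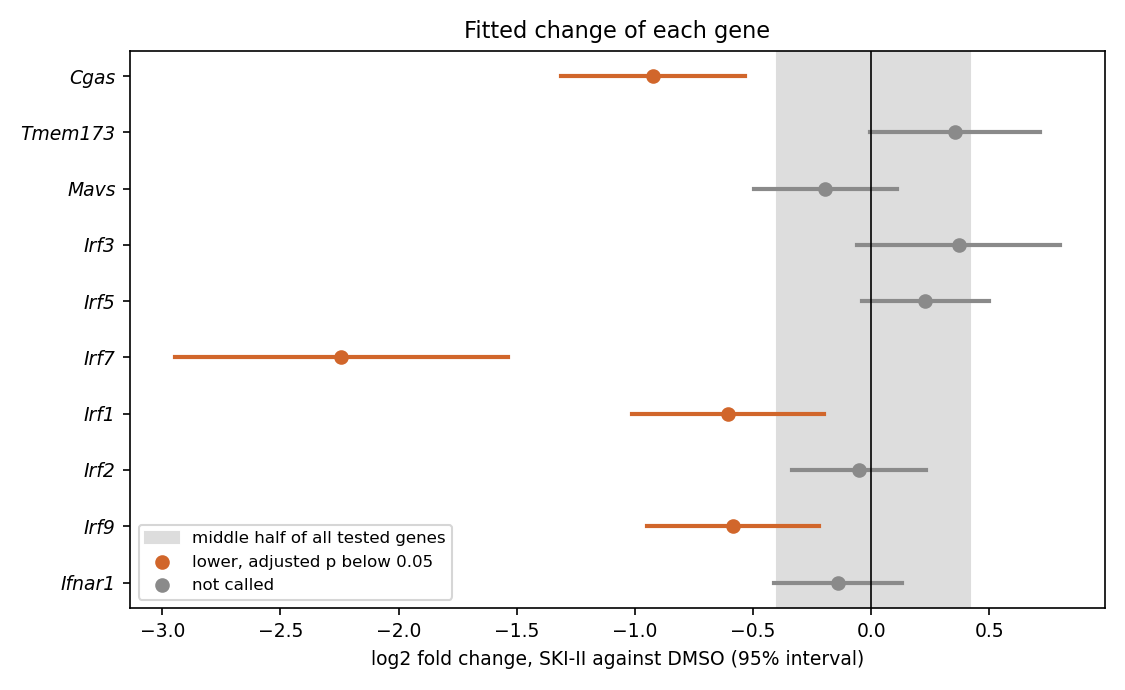
Log2 fold change of SKI-II against DMSO for each gene (points) with its 95% interval (lines), in orange where the gene was lower at an adjusted p below 0.05 and in grey where it was not called. The grey band runs from the 25th to the 75th percentile of all tested genes, -0.40 to 0.42, and Irf7 at -2.24 lies farthest from it.

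Among the sensing genes, that of the DNA sensor cGAS fell, and those of STING and MAVS did not pass the test. Cgas (ENSMUSG00000032344, minus strand of chr9:78430526-78443237 in GRCm38) encodes the cytosolic DNA sensor. It had 664, 612 and 729 normalized counts in DMSO replicates 1 to 3 and 272, 360 and 423 in SKI-II replicates 1 to 3. Every SKI-II library lay below every DMSO library. The mean was 668 ± 58.7 in DMSO and 351 ± 75.8 in SKI-II (SD, n = 3 each), and the fitted log2 fold change was -0.92 (standard error 0.17, 95% interval -1.31 to -0.53, edgeR adjusted p = 0.00271). The Cgas call held in all 14 alternative analyses, with log2 fold changes of -1.08 to -0.78. A pseudogene on the opposite strand, Gm8093, shares 201 exon bases with Cgas (4.87% of its exon length) and had 4 to 19 reads in each library.

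Tmem173 (ENSMUSG00000024349, minus strand of chr18:35733679-35740554) encodes STING, the receptor for the messenger that cGAS makes. Its normalized counts were 356, 275 and 305 in DMSO and 395, 444 and 362 in SKI-II. The SKI-II libraries lay above the DMSO libraries, but the nearest libraries of the groups, 356 in DMSO and 362 in SKI-II, were close. The means were 312 ± 41.0 and 400 ± 41.2 (SD, n = 3 each), and the log2 fold change of 0.36 (standard error 0.16, 95% interval -0.00 to 0.71) did not pass the test (edgeR adjusted p = 0.108). Mavs (ENSMUSG00000037523, plus strand of chr2:131234063-131248025), the adaptor for RNA sensors, had 1032, 989 and 980 normalized counts in the DMSO libraries and 1000.3, 745 and 881 in SKI-II. Those groups overlapped, and the log2 fold change of -0.19 (95% interval -0.50 to 0.11, edgeR adjusted p = 0.292) did not pass.

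The ratio of Cgas to Tmem173, taken within each library on the per-length scale, was 1.05, 1.25 and 1.35 in DMSO and 0.388, 0.457 and 0.659 in SKI-II. All 3 DMSO libraries thus held more Cgas than Tmem173 messages, and all 3 SKI-II libraries held fewer. The mean ratio was 1.22 ± 0.151 (SD, n = 3) in DMSO and 0.501 ± 0.141 (SD, n = 3) in SKI-II, with an exact two-sided permutation p = 0.1, the smallest that 3 libraries against 3 can give.

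Among the IRFs that are activated by phosphorylation, Irf7 fell several-fold, whereas Irf3 and Irf5 did not pass the test and had higher means in SKI-II. Irf7 (ENSMUSG00000025498, minus strand of chr7:141262706-141266481) is known as the amplifier of type I interferon production. It had 2224, 1649 and 2533 normalized counts in the DMSO libraries and 388, 250.0 and 712 in SKI-II. The highest SKI-II library, replicate 3, was still below the lowest DMSO library. The mean fell from 2135 ± 449 to 450 ± 237 (SD, n = 3 each), and the fitted log2 fold change was -2.24 (standard error 0.32, 95% interval -2.95 to -1.54, edgeR adjusted p = 0.000656). Counted from the lowest log2 fold change, Irf7 ranked 148 among the 12274 tested genes. The call held in all 14 alternatives, with log2 fold changes of -2.75 to -1.95. The coefficient of variation of Irf7 within the SKI-II group was 52.7%, against a common value of 17.5% over all tested genes.

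Irf3 (ENSMUSG00000003184, plus strand of chr7:44997648-45002848), the first IRF activated by TBK1, had 556, 456 and 329 normalized counts in the DMSO libraries and 598, 626 and 512 in SKI-II. DMSO replicate 1 lay within the SKI-II range, so the groups overlapped. The log2 fold change of 0.37 (standard error 0.19, 95% interval -0.06 to 0.80) did not pass the test (edgeR adjusted p = 0.157). It passed without DMSO replicate 1, at 0.54 (edgeR adjusted p = 0.0475), and when the replicate number entered as a block, at 0.40 (edgeR adjusted p = 0.0478). Irf5 (ENSMUSG00000029771, plus strand of chr6:29526625-29541871), which drives inflammatory cytokine genes below Toll-like receptors, had 1822, 1601 and 1513 normalized counts in the DMSO libraries and 1889, 2062 and 1836 in SKI-II. The lowest SKI-II library lay just above the highest DMSO library. Its log2 fold change of 0.23 (standard error 0.12, 95% interval -0.04 to 0.50) did not pass either (edgeR adjusted p = 0.161).

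Some exon bases of these genes are shared with a neighbour, and the strand setting of the read counting is not given in the sources used here. Irf5 shares 411 exon bases (14.1% of its exon length) with Tnpo3 on the opposite strand, a nuclear import receptor that was lower in SKI-II at a log2 fold change of -0.63 (edgeR adjusted p = 0.00398). Irf7 shares 45 bases (1.19%) with Phrf1, whose log2 fold change was 0.23 (edgeR adjusted p = 0.305). Irf3 shares 88 bases (2.56%) with Bcl2l12, at 0.17 (edgeR adjusted p = 0.657). Reads on these bases cannot be assigned without the strand setting, and the value for Irf5 is the most exposed.

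Of the IRFs regulated mainly by their own amount, the activators Irf1 and Irf9 fell by about the same log2 fold change and the repressor Irf2 did not pass the test. Irf1 (ENSMUSG00000018899, plus strand of chr11:53770014-53778374) activates interferon-gamma response and antigen presentation genes. It had 350, 264 and 311 normalized counts in the DMSO libraries and 208, 229 and 172 in SKI-II. Every SKI-II library lay below every DMSO library. The log2 fold change was -0.61 (standard error 0.18, 95% interval -1.01 to -0.20, edgeR adjusted p = 0.0255). The call was lost without DMSO replicate 1 (edgeR adjusted p = 0.0684), without SKI-II replicate 1 (edgeR adjusted p = 0.0577) or without SKI-II replicate 3 (edgeR adjusted p = 0.0734), at log2 fold changes that kept the same sign.

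Irf9 (ENSMUSG00000002325, plus strand of chr14:55603571-55610030) is the DNA-binding subunit of ISGF3. It had 751, 564 and 594 normalized counts in the DMSO libraries and 422, 367 and 483 in SKI-II, again with no overlap. The log2 fold change was -0.58 (standard error 0.16, 95% interval -0.95 to -0.22, edgeR adjusted p = 0.0183). It missed the threshold without DMSO replicate 1 (edgeR adjusted p = 0.0504) or without SKI-II replicate 2 (edgeR adjusted p = 0.0808). Irf9 shares 123 exon bases (2.28%) on the same strand with Rnf31, a ubiquitin ligase subunit whose log2 fold change was -0.40 (edgeR adjusted p = 0.0499).

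Irf2 (ENSMUSG00000031627, plus strand of chr8:46739732-46847458) competes with IRF1 for the same DNA element. Its normalized counts were 788, 652 and 674 in DMSO and 681, 698 and 662 in SKI-II, and all 3 SKI-II values lay inside the DMSO range. The log2 fold change was -0.05 (95% interval -0.34 to 0.23, edgeR adjusted p = 0.787). The ratio of Irf1 to Irf2 on the per-length scale was 0.332, 0.303 and 0.345 in DMSO and 0.229, 0.245 and 0.194 in SKI-II, so each SKI-II library was below each DMSO library. The means were 0.327 ± 0.0215 and 0.223 ± 0.0261 (SD, n = 3 each), with an exact two-sided permutation p = 0.1, the smallest possible. The size of this ratio depends on the exon length used, 2497 bases for Irf2 against 7396 over all its annotated exons. The order of the libraries does not depend on it.

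Ifnar1 (ENSMUSG00000022967, plus strand of chr16:91485238-91507441) encodes the receptor chain through which type I interferons signal back to the cell. It had 1131, 1108 and 1116 normalized counts in the DMSO libraries and 1130, 987 and 928 in SKI-II. SKI-II replicate 1 lay inside the DMSO range and the other two lay below it. The log2 fold change of -0.14 (95% interval -0.41 to 0.13, edgeR adjusted p = 0.396) did not pass the test.

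The bases upstream of the annotated gene start are given for Irf7, which had the lowest log2 fold change, for Irf1, which fell, and for Irf2, which did not pass the test and whose window held the most motif matches. The sequences are from RefSeq on GRCm38.p6, 5′ to 3′ along the gene's own strand, and capitals mark matches to any of 6 motifs searched on both strands. Irf7 is shown from the minus strand of chr7:141266482-141266674, Irf1 from the plus strand of chr11:53769764-53770013, and Irf2 from the plus strand of chr8:46739495-46739731. Those of Irf7 and Irf2 end before the first GENCODE exon, which begins ahead of the RefSeq start.
Irf7: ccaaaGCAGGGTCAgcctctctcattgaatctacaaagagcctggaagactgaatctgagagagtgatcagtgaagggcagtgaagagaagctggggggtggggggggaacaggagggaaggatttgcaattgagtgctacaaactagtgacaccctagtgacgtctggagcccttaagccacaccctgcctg
Irf1: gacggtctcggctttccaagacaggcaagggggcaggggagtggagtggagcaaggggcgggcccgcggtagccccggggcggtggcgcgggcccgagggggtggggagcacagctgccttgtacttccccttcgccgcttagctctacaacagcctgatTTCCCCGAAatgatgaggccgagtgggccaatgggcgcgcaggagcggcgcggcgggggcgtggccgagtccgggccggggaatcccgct
Irf2: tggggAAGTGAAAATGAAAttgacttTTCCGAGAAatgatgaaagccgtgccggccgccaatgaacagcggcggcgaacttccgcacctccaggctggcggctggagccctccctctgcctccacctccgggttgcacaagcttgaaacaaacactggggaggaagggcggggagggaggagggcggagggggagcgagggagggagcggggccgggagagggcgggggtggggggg

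The motifs were the IRF core AANNGAAA, an ISRE-like repeat GAAANNGAA, the interferon-gamma activated site GAS TTCNNNGAA, an NF-kB site GGGANTTCC, the Nrf2 core TGACNNNGC (ARE) and the ATF4 composite site TGATGCAAT (CARE). The IRF core and the ISRE-like repeat overlap in part, so 1 stretch can match both. The search ran on windows of 300 bases, 250 before and 50 after each RefSeq start, of which 9 members have 11, and Tmem173 was not included. The IRF core and the ISRE-like repeat were matched in 1 of the 11 windows, that of Irf2, where AAGTGAAA lies at -245, AAATGAAA at -239 and GAAAATGAA at -241 from the start. The IRF core stands in 18.1% of the windows of all tested genes and the ISRE-like repeat in 7.28%. GAS matched in 3 windows, at -224 in Irf2 (TTCCGAGAA), at -90 in Irf1 (TTCCCCGAA) and at -5 in Ifnar1, where 6.54% of tested genes' windows hold it. The ARE core matched at -245 in Irf7, on the reverse strand (TGACCCTGC), and at -73 in Mavs, and stands in 14.4% of tested genes' windows. The NF-kB site matched at -16 in Irf2 (2.35% of windows), across the GENCODE start and therefore not marked in the sequence, and CARE in none (0.119%). The other 6 windows, of Irf3, Irf5, Cgas, both starts of Irf9 and the second start of Irf1, held none of these letters.

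Levels of different genes were compared per length, as normalized CPM per kilobase of exon in protein-coding transcripts. The order of genes depends on the length used. It was 2393 bases for Irf7, 2647 for Irf5 and 2497 for Irf2, against 3776, 2905 and 7396 over all annotated exons. Levels on the longer lengths are not given, so the ranks below hold for the shorter lengths only. In DMSO, Irf7 was the most abundant member at 55.6 ± 11.7 (SD, n = 3), followed by Irf5 at 38.7 ± 3.75, although the lowest Irf7 library, 42.95, was level with the highest Irf5 library, 42.91. Mavs at 20.1 and Ifnar1 at 17.8 came next, then Irf2 at 17.6, Irf9 at 12.8, Irf3 at 12.7, Cgas at 10.2, Tmem173 at 8.46 and Irf1 at 5.76. Ifnar1 and Irf2 overlapped over their libraries, as did each neighbouring pair from Irf9 through Tmem173. In SKI-II the order was led by Irf5 at 45.4 ± 2.78 (SD, n = 3), with all 3 of its libraries above those of any other member. Mavs (17.6), Irf2 (17.0), Irf3 (16.5), Ifnar1 (16.2), Irf7 (11.7) and Tmem173 (10.8) followed, each overlapping with the next. Irf9 at 8.52 did not overlap with Tmem173 above it or Cgas below it, though its libraries, 7.38 to 9.71, lay inside the range of Irf7, and Cgas at 5.37 and Irf1 at 3.79 overlapped at the bottom. Irf7 moved from rank 1 to rank 6, with SKI-II libraries of 6.51 to 18.5.

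The make-up of the IRF messages differed between the groups. Of the summed per-length level of Irf1, Irf2, Irf3, Irf4, Irf5, Irf7, Irf8 and Irf9, Irf7 made up 30.5%, 27.0% and 35.0% in DMSO and 7.49%, 5.07% and 12.9% in SKI-II. On the length used, Irf7 was the largest part in every DMSO library. Its place above Irf5 there depends on that length, as do the sizes of all these shares. Irf5 took 22.6%, 23.7% and 18.9% in DMSO and 32.9%, 37.8% and 30.2% in SKI-II, where it was the largest part in every library. Irf8, a factor that sets macrophage identity, took 20.0% ± 3.01 and 23.7% ± 3.04, and Irf3 took 7.15% ± 1.89 and 12.2% ± 1.88. Because these are shares of 1 sum, a fall in Irf7 alone raises the shares of the others. The sum itself went from 179 ± 17.5 to 136 ± 7.45 on the per-length scale (SD, n = 3 each, exact two-sided permutation p = 0.1, the smallest possible).

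The ratio of Irf7 to Irf3, partners that bind interferon promoters, was 3.66, 3.31 and 7.05 in DMSO and 0.594, 0.365 and 1.27 in SKI-II. Irf7 exceeded Irf3 in all 3 DMSO libraries and in 1 SKI-II library. The mean ratio went from 4.67 ± 2.07 to 0.744 ± 0.472 (SD, n = 3 each, exact two-sided permutation p = 0.1, the smallest possible). Of the family outside the set, Irf8 had 1970 ± 335 normalized counts in the DMSO libraries and 1781 ± 316 in SKI-II (SD, n = 3 each), a log2 fold change of -0.15 that did not pass (edgeR adjusted p = 0.526). Irf4 was scarce, at 22.6 and 30.0 normalized counts (edgeR adjusted p = 0.512). Among the IRF2-binding corepressors, Irf2bpl rose at a log2 fold change of 0.61 (edgeR adjusted p = 0.00765) and Irf2bp1 and Irf2bp2 were at -0.16 and -0.11, not called.

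**Figure D3:**
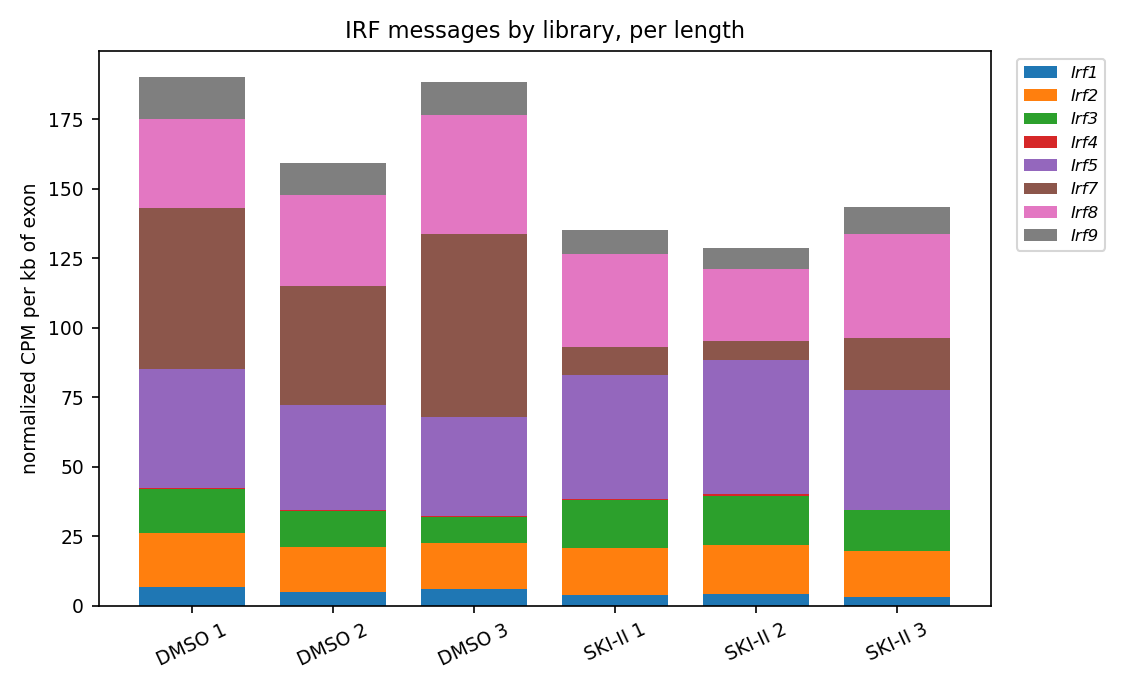
Normalized CPM per kilobase of exon (vertical axis, from 0) of 8 IRF genes stacked for each of the 6 libraries. The Irf7 segment, 27.0% to 35.0% of the stack in the DMSO libraries, was 5.07% to 12.9% in the SKI-II libraries.

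The other genes of the pathway were taken from lists written by role, and are described by counts beside the 18.4% of all tested genes that were higher and the 19.7% that were lower. Both shares are at the adjusted p, and none was taken for the counts at an unadjusted p. The lists share Ifih1 and Usp18, each found in 2 of them. Among RNA sensors and their cofactors, 5 of 15 were lower and 0 higher by edgeR (at an unadjusted p below 0.05, 7 lower and 1 higher), with a median log2 fold change of -0.39. They were Zbp1, a Z-nucleic acid sensor (-1.47, edgeR adjusted p = 0.0284), the double-stranded RNA kinase Eif2ak2 (-1.08), G3bp1 (-0.75), Dhx15 (-0.61) and Ddx58, which encodes RIG-I (-0.88, edgeR adjusted p = 0.00882, named after its value was seen). RIG-I is a sensor that signals through MAVS. The Zbp1 call was lost without DMSO replicate 1 (edgeR adjusted p = 0.0822), SKI-II replicate 1 (0.0675) or SKI-II replicate 2 (0.0740). With the replicate number as a block 8 genes of this list were lower, and with no filter on low counts or without SKI-II replicate 3, 1 gene was higher, the antiviral Zc3hav1 (named after its values were seen).

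Of genes for DNA sensing and clearance, 7 of 14 were lower and 3 higher, with a median of -0.43. Hmgb1, a DNA-binding chromatin protein, was at -1.28 and Rnaseh2c, a subunit of RNase H2, fell from a mean of 299 to 149 normalized counts, while the DNA-binding p200 family genes Ifi203 and Ifi204 rose 2.83-fold and 2.02-fold. Ifi203 and Ifi204 belong to a multigene family, so their reads may be split between near-identical copies. Of endosomal Toll-like receptors and chaperones, 4 of 9 were lower and 0 higher by edgeR (5 lower and 0 higher at an unadjusted p below 0.05), with a median of -0.69. They were the chaperone Cnpy3 (-1.47), the protease Lgmn that processes these receptors (-1.39), the RNA receptor Tlr7 (-1.26) and the transporter Slc15a4 (-0.69). Without DMSO replicate 1, 1 gene of this list was higher.

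Of 20 adaptors and kinases upstream of IRF3, IRF5 and IRF7, 6 were higher and 0 lower by edgeR (7 higher and 1 lower at an unadjusted p below 0.05), and their median was 0.25. The ubiquitin ligase Traf2 was called lower by limma-voom (log2 fold change -0.47), with the replicate number as a block (-0.47) and without SKI-II replicate 1 (-0.55), and was named after its values were seen. The TLR4 adaptor Ticam2 had 313, 341 and 297 normalized counts in the DMSO libraries and 829, 674 and 623 in SKI-II, with no overlap and a log2 fold change of 1.16 (edgeR adjusted p = 0.000355). The kinase Ripk1 (0.72) and the TBK1-binding adaptors Tbkbp1 (0.64) and Azi2 (0.58) rose as well. Tbk1, the kinase on which the STING and MAVS routes meet, had a log2 fold change of -0.03 (95% interval -0.36 to 0.30, edgeR adjusted p = 0.896). Of 18 negative regulators, 4 (22.2%) were lower and 3 (16.7%) higher, shares near those of all tested genes. Usp18, a protease that removes ISG15 and blocks IFNAR2 signalling, was at -1.60 and the phosphatase Ptpn6 at -1.08, while Nlrc5 (1.34), a known transactivator of MHC class I genes, and Nlrc3 (1.27), the latter a known inhibitor of STING, rose. With 1 library left out, 3 to 5 of the negative regulators were lower and 2 to 4 higher. The calls of Tnfaip3 (lower) and Nlrx1 (higher), named after their values were seen, were lost without DMSO replicate 2 or 3, that of Tnfaip3 also without SKI-II replicate 2 and that of Nlrx1 also without SKI-II replicate 1 or 3.

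Interferon messages themselves were near the limit of detection. Of 21 interferon genes, 19 had no read in any library, and all 21 together had 11 reads. No read in a single library, taken alone, allows an expected count of up to 3. Ifnb1 had 4 reads in DMSO replicate 1, 4 in SKI-II replicate 2 and none elsewhere, and no difference was detectable at this depth. Of receptors and their signalling genes, 3 of 10 were lower and 1 higher, with a median of -0.02. Ifngr1, a receptor chain for interferon-gamma, was at -0.94 and its partner Ifngr2 at -0.51, the IFNAR1-bound kinase Tyk2 at -0.38 and Jak2 at 0.58. Stat2, a subunit of ISGF3, was at -0.30 (95% interval -0.70 to 0.11, edgeR adjusted p = 0.224), and Ifnar2, the partner chain of Ifnar1, at 0.20 (edgeR adjusted p = 0.278). Neither of them passed the test. Stat2 and Ifnar2 were named after their values were seen. The number of receptor list genes lower was 1 without SKI-II replicate 2, and the number higher was 0 without DMSO replicate 2 or SKI-II replicate 2. Leaving out either of those libraries ended the calls of Tyk2 and Jak2, and that of Ifngr2 was lost without DMSO replicate 3 or SKI-II replicate 2.

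Genes typically induced through IRF3, IRF7 or ISGF3 were lower in 17 of 27 and higher in 3, with a median of -1.26. Of them 13 were called lower with a log2 fold change below -1, beside 7.44% of all tested genes. The chemokine Cxcl10 had 77.7, 25.3 and 32.7 normalized counts in the DMSO libraries and 3.36, 1.91 and 0.815 in SKI-II, from 3, 2 and 1 reads. All SKI-II libraries were far below the DMSO libraries, and the fitted log2 fold change of -4.49 (standard error 0.80, edgeR adjusted p = 0.000661) rests on those few reads. The OAS-like gene Oasl2 had 267, 63.2 and 80.2 normalized counts under DMSO against 41.4, 7.63 and 20.4 under SKI-II, and it was at -2.59 on the log2 scale (standard error 0.64, edgeR adjusted p = 0.0110). DMSO replicate 1 was the highest DMSO library for 25 of the 27 genes, against 36.9% of all tested genes, 11 of 15 RNA sensors, 12 of 20 adaptors and kinases and 2 of 10 receptor genes. Without it 14 genes were lower, the median was -0.99, Oasl2 was at -1.67 (edgeR adjusted p = 0.0301) and Cxcl10 at -3.85 (edgeR adjusted p = 0.00101). Oasl2 was at -3.27 without SKI-II replicate 1. Against this, the exonuclease gene Isg20 rose by 1.71 and the ubiquitin-like Isg15 by 0.86 (edgeR adjusted p = 0.0415). The third gene higher was Oas1g, named after its value was seen. The number higher was 1 when replicate 2 or 3 of either group was left out, where the Oas1g call was lost too, and the Isg15 call was lost without any 1 library except DMSO replicate 1.

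**Figure D4:**
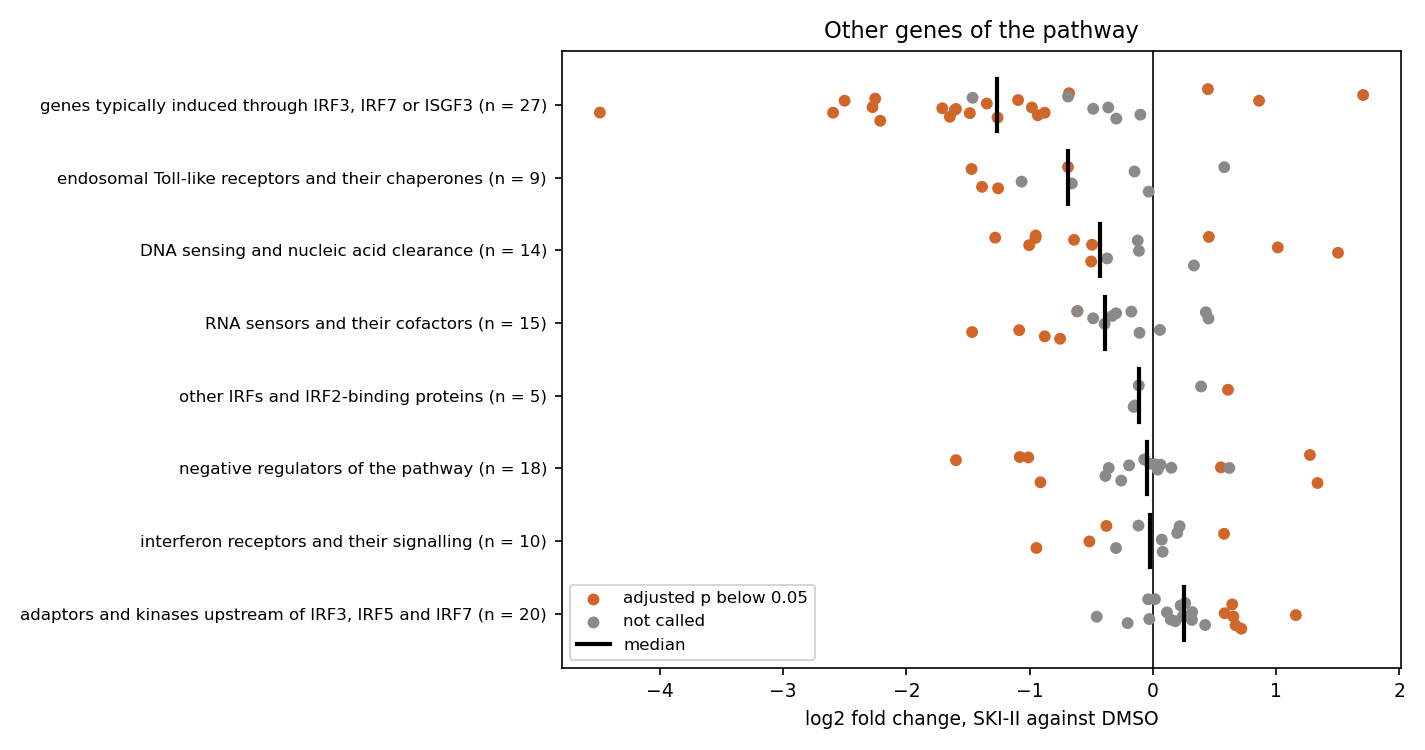
Log2 fold change of SKI-II against DMSO (horizontal axis) for each tested gene of 8 lists, with called genes in orange, others in grey and the list's median as a black bar. Genes typically induced through IRF3, IRF7 or ISGF3 have the lowest median, -1.26, and the adaptors and kinases the highest, 0.25.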

How the data were processed

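The authors enriched mRNA on oligo(dT) beads and deposited unnormalized read counts per Ensembl gene for 3 SKI-II and 3 DMSO libraries. The submitters' processing notes name Trimmomatic 0.36, STAR 2.5.2b, featureCounts of Subread 1.5.2 and DESeq2. The genome build, annotation release and strand setting are, for the sources used here, not given. Groups and replicate numbers came from the sample labels.

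Gene names and positions were taken from GENCODE M21 (GRCm38), which named 49056 of 49315 identifiers, and the rest held 0.0102% of the counts. Libraries within a group differed by more than counting noise (chi-square of 15.4 to 58.1 per degree of freedom), so none appeared to be deposited more than once. This does not show whether they are biological or technical replicates, and they were taken as separate samples because the labels list them so. The counts of all genes were fitted by the quasi-likelihood method (edgeR 4.0.16 under R 4.3.3), after TMM scaling (factors 0.941 to 1.05) and the default expression filter (minimum count 10, minimum total 15). The common biological coefficient of variation was 17.5%. Normalized counts are counts brought to the mean of the scaled library sizes, and per-length levels divide these by the exon length of protein-coding transcripts in the GENCODE basic set. Ratios were compared by exact permutation in scipy 1.17.1, and figures were drawn with matplotlib 3.10.9. The programs were tested on simulated counts.

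The members and lists were chosen with earlier results of these data known. All 10 members are named, and in each list the 2 highest and the 2 lowest called genes by log2 fold change, all other IRF genes, and the 3 genes most correlated with each of the members of largest and smallest log2 fold change. Some items that this rule or the lists would include were left out and are not reported here. Alternatives were DESeq2 1.42.0, limma-voom (limma 3.58.1), RLE scaling, library totals alone, 2 other filters, a prior count of 2, a fold threshold, the replicate number as a block and each library left out. Intervals cover 95% and, like counting error, no other source of error.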

Additional observations from a re-analysis of the deposited data

How the results depend on the processing

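At the adjusted p threshold alone, the call and direction of Irf7 and Cgas held in each of 14 alternatives, with adjusted p of at most 0.00650 and 0.0129, and with a log2 fold change beyond 1 required Cgas was not called. The number of members lower was 4 in the analysis as reported, 2 to 4 when 1 library was left out, and 1 (Irf7) when a log2 fold change beyond 1 was required. The number higher was 0, and 0 to 1 when 1 library was left out, the 1 being Irf3 without DMSO replicate 1. Irf2 alone changed sign, to 0.022 without DMSO replicate 1, and with 1 library left out it ranged from -0.11 to 0.022. Of all tested genes, 2255 were higher and 2413 lower, 1016 and 913 beyond a log2 fold change of 1, and 1507 to 2227 and 1766 to 2387 with 1 library left out. The largest shift of the median of all genes under another scaling was to 0.02. With the replicate number as a block, 1 member was called higher (Irf3, log2 fold change 0.40, edgeR adjusted p = 0.0478), 4 lower, 2765 and 2819 of all genes higher and lower, and 8 of 15 RNA sensors lower against 5. The numbers were not shown to pair the libraries, since deviations of same-numbered libraries correlated at 0.246, 0.00994 and 0.458, and DMSO replicate 1 correlated best with SKI-II replicate 2 (0.296). Genes induced through IRF3, IRF7 or ISGF3 were lower in 13 to 22 across alternatives, and higher in 1 with library totals alone. Depth limits the interferon genes and Cxcl10, and 3 libraries a group limit the exact tests on ratios to p = 0.1.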

Other observations

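The genes whose log2 normalized counts followed those of Irf7 most closely over the 6 libraries were Zfp106 (Pearson r = 0.996, log2 fold change -0.09, not called), the acyl-CoA thioesterase Acot1 (0.993, log2 fold change -1.34) and Ankrd53 (0.993, log2 fold change -1.71). Those closest to Irf3, the member with the largest log2 fold change, were 5730409E04Rik (r = 0.997), Hook2 (0.996) and Tbcc (0.995). These values are descriptions over 6 libraries that share the split between the conditions, and 344 and 192 tested genes had r above 0.95 with Irf7 and Irf3.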
